A study of Homo sapiens with 4 samples.

Results

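Aclarubicin (Acla), an anthracycline given at 20 µM for 4 h, was set against no treatment in K562, an established line from human chronic myelogenous leukaemia, by ATAC-seq. Every row of the authors' deposited list of regions with more signal after Acla was taken, which gave 61295 of the 100205 regions found in any of the 3 drug lists of the study. The other lists hold 66720 regions for doxorubicin (Doxo) and 52784 for N,N-dimethyldoxorubicin (diMe-Doxo), both given at 10 µM for 4 h, and all 3 lists use the same untreated controls. Every group is the same cell line in bulk, so a gain in more cells and a larger gain in each cell cannot be told apart. Each group is 1 GEO sample, but the list gives values for 2 Acla and 2 control libraries, here called library 1 and library 2. Whether these came from separate cultures is not stated, and any p-value rests only on the spread between these libraries, which may be technical. In the edgeR fits below, the spread used for a region is partly shared over all regions, and not that of its own libraries alone. The list carries no gene names, and no annotation of its build, GRCh37, was used here, so neither the position of regions relative to genes nor the marker genes of the cell line were analysed.

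ATAC-seq uses a transposase that inserts adapters where DNA is not wrapped tightly by nucleosomes, so the number of reads at a region reflects how open the chromatin is there. Anthracyclines are planar molecules that slide between DNA base pairs and carry a sugar in the minor groove. Aclarubicin carries a chain of sugars, is known to evict histones from chromatin, and does not trap topoisomerase II on cut DNA in the way that doxorubicin does. Regions gained after such a drug are therefore of interest both for where they lie and for how closed they were before.

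With Acla, the listed regions held many reads where the controls held nearly none. The median region held 92 reads in Acla library 1 and 73 in Acla library 2, with ranges of 16 to 1128 and 12 to 961. In both control libraries the median region held 1 read, the mean was 2.41 reads in library 1 and 2.09 in library 2, and the highest values were 52 and 49. Both Acla libraries lay above both control libraries, after the authors' scaling, at all 61295 regions (100% of the list), which the selection of the list as gained makes likely. In all, the regions collected 7266289 and 5858214 reads in the Acla libraries and 147816 and 128353 in the control libraries. The lowest control value was 1 read, which may stand for 0, so the control medians, means and totals may be too high. Reads outside the list were not analysed here, so the depth of the whole libraries is unknown. Normalized signal is the read count times a factor for each library. By it 1 read counted as 0.374 and 0.384 in the Acla libraries and as 2.85 and 2.44 in the control libraries. Raw reads of the 2 groups are thus not on 1 scale. The median normalized signal was 34.37 and 28.05 in the Acla libraries and 2.85 and 2.44 in the control libraries, a smaller contrast than that of the reads.

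In the authors' deposited table the log2 fold of Acla over control had a median of 2.62, with 2.24 and 3.16 at the 25th and 75th percentiles and 1.87 and 4.13 at the 5th and 95th. The lowest log2 fold was 1.5 and the highest p-value 0.05, so these limits appear to have chosen the list, and regions outside them were not analysed here. The authors' false discovery rate (FDR) was at most 0.05 at 50259 regions (82.0%) and at most 0.01 at 26270 (42.9%). The other 11036 regions (18%) had an FDR above 0.05, up to 0.0839, with a median log2 fold of 2.0 beside 2.79 for the regions at or below 0.05. The list was chosen on these same libraries, which fixes most of the following count, so it is no evidence of the gain: edgeR's quasi-likelihood test on recovered reads called 61146 regions (99.8%) higher with Acla at a Benjamini-Hochberg adjusted p of at most 0.05, with the authors' factors. With factors computed within the list, which holds gained regions only and so sets their average change near 0, it called 0 regions (TMM factors), and DESeq2 called 0 as well. At an unadjusted p under 0.05 the fit with TMM called 367 regions higher and 63 lower, and DESeq2 717 higher and 554 lower, with median log2 differences of -0.27 and -0.30.

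The regions with the lowest FDR were also those with the highest fold, and each had 1 read in both control libraries. The region at chrX:27847980-27850484 (GRCh37) held 608 and 476 reads in the Acla libraries and 1 read in each control, for which the deposited log2 fold is 6.28 (authors' FDR 1.18e-09). The ratio, 77.7, rests on 2 control reads, for which counting error alone gives 21.4 to 642 (95% interval). As 1 read is the lowest value that the list gives for a control and may stand for 0, neither the ratio nor this interval holds if no read was counted. At chr10:82841853-82844087 the Acla libraries held 550 and 465 reads, and the authors' log2 fold was 6.18. The next regions were chr10:55769309-55771316, with 562 and 442 reads and a log2 fold of 6.16, and chrX:33561137-33562938, with 548 and 426 reads and 6.12. The Acla libraries agreed closely at these 4 regions, which were also listed for Doxo and diMe-Doxo with log2 folds between 5.30 and 6.19.

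The lowest folds were at regions that already held reads in the controls, which ranks ratios and not the reads gained. At chr22:23199498-23200723 the Acla libraries held 291 and 267 reads and the controls 15 and 13, at a deposited log2 fold of 1.5. The same fold of 1.5 was given for chr14:77736484-77737665 (94 and 101 reads against 4 and 6) and for chr5:608274-609266 (122 and 146 against 4 and 10). At chr1:228552341-228553793 the counts were 307 and 333 against 11 and 22, a log2 fold of 1.51, although a peak had been called in none of the 4 libraries. A fold of at least 4 on the log2 scale was reached by 3953 regions (6.45%) and of at least 5 by 443, while 6697 (10.9%) lay below 2. The 3953 regions had a median width of 1273 bp and medians of 208 and 156 Acla reads. Of these, 63.3% had 1 read in both controls, and 7.31% lay on chromosome X, which held 3.71% of all regions of the list.

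Control reads were few at nearly all regions. By the authors' factors 1 control read counted as 2.85 and 2.44, and 1 Acla read as 0.374 and 0.384. The list was also chosen for more signal with Acla than in control. How far either sets the number of control reads and peaks was not tested. The authors had called no peak in either control library at 55945 regions, 91.3% of the list. The exact 95% interval of 91.0% to 91.5% holds counting error only. It takes regions as independent draws, which they are not, as all share the same control libraries. A peak had been called in 1 control library at 3846 regions (6.27%) and in both at 1504 (2.45%). The median log2 fold was 2.65, 2.39 and 2.17 in these 3 classes, and the median width was 826, 1159 and 1466.5 bp. Regions that were already peaks in both controls therefore started from more reads and had the lower fold, though their Acla reads, with medians of 181 and 166, were above the 89 and 69 of regions with no control peak.

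Reads in the controls showed the same order. The lowest value in either control library was 1 read, and a region without any read may stand at this value, so the folds of such regions depend on it. Both controls stood at 1 read at 21091 regions (34.4%), where the median log2 fold was 2.96. By class of summed control reads, the median was lower, with 2.68 at 3 reads, 2.47 at 4 to 5, 2.30 at 6 to 10, 2.20 at 11 to 20 and 2.08 at the 337 regions with 21 or more. An order of this kind is partly built into a ratio whose denominator defines the classes. Acla reads moved the other way, from medians of 63 and 47 in the lowest class to 387 and 376 in the highest, and width went from 657 to 2308 bp.

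The control libraries were seldom both above 1 read at the same region. Exactly 1 of them stood at 1 read at 37215 regions (60.7%), with library 1 at 1 read in 16614 and library 2 in 20601, and both were above 1 read at 2989 (4.88%). Where library 2 stood at 1 read, the median of library 1 was 4 reads, and in the reverse case it was 3. As the grid of control reads shows, 5672 regions held 2 reads in library 1 and 1 in library 2, 5014 held 1 and 2, and only 247 held 2 and 2. Spearman's rho between the control libraries was -0.30 over the 61295 regions, which share these libraries and are not independent, and -0.22 over the 100205 regions of all lists. Even at the 1504 regions called as peaks in both controls, 47.5% had 1 of the libraries at 1 read. The normalized value of a control at a single region is therefore coarse, with steps of 2.85 and 2.44, and what made the control reads alternate was not tested.

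**Figure D1:**
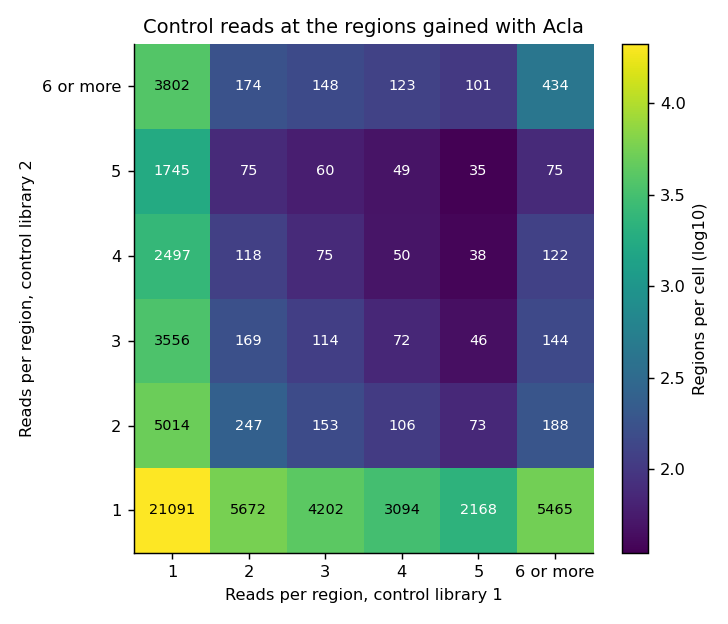
Number of gained regions by reads in control library 1 (horizontal) and control library 2 (vertical), with 6 or more reads pooled and the colour on a log10 scale. The bottom row and the left column, where 1 of the libraries stands at 1 read, hold nearly all regions, and the cell of 2 and 2 reads holds 247.

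Gained regions were mostly 0.5 to 1.5 kb wide. The median width was 854 bp, with 377 and 1809 bp at the 5th and 95th percentiles and extremes of 82 and 5231 bp, and together the regions covered 57.9 Mb. By width, 29982 regions (48.9%) measured 501 to 1000 bp, 15727 (25.7%) 1001 to 1500 bp, 7332 (11.96%) 301 to 500 bp and 1208 (1.97%) up to 300 bp. The median log2 fold went from 2.34 at up to 300 bp through 2.41, 2.60 and 2.82 to 2.92 at 1501 to 2000 bp, and was 2.84 and 2.70 in the 2 widest classes. Regions without a control peak made up 97.8% of those up to 300 bp and 47.4% of the 485 over 2500 bp. A peak in both Acla libraries was called at 29.97% and 94.4% of these classes. Wider regions also count more reads, so width goes with depth, and Spearman's rho of width was 0.77 with Acla reads, 0.52 with control reads and 0.23 with the fold, over the 61295 regions.

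**Figure D2:**
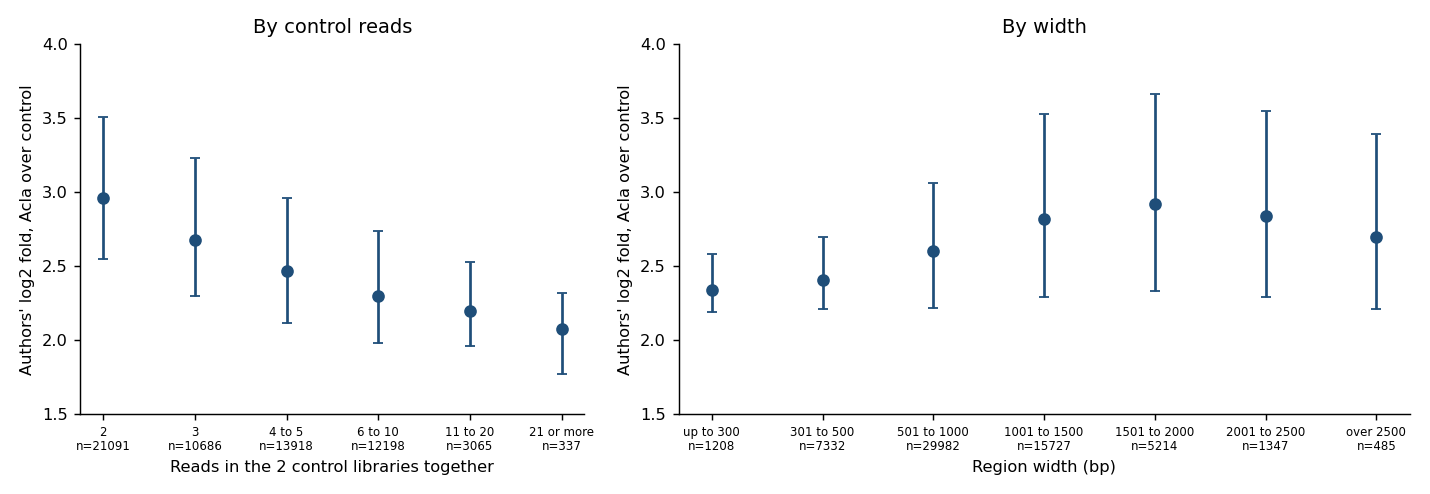
Authors' log2 fold of Acla over control by summed control reads (left) and by region width (right), as the median with bars from the 25th to the 75th percentile and n regions per class. The median goes from 2.96 in the class with the fewest control reads to 2.08 in that with the most, and from 2.34 in the narrowest class through 2.92 to 2.70 in the widest.

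The 4 widest regions had authors' log2 folds at or below the median of the list, 2.62. At chr4:100570438-100575669, 5231 bp wide and a peak in all 4 libraries, the Acla libraries held 891 and 800 reads and the controls 50 and 18, a log2 fold of 1.78. The others were chr1:17083958-17088231 (4273 bp, log2 fold 2.30), chr2:129024718-129028948 (4230 bp, 2.62) and chr21:44836854-44841056 (4202 bp, 2.57). The regions with the most control reads had log2 folds between 1.70 and 1.83. They were the widest region above, chr22:20988581-20991053 with 668 and 822 reads against 19 and 49, chr1:228112533-228116420 with 816 and 803 against 52 and 10, and chr7:136553183-136556200 with 785 and 673 against 43 and 14. The controls differed more between themselves than the Acla libraries did in these 4 regions, in 3 of them with library 1 above library 2.

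The Acla libraries ranked the regions alike, with a Spearman's rho of 0.89 between their reads over the 61295 regions and 0.78 between their reads per kb of region, which leaves out the shared width. Normalized signal was higher in library 1 at 78.6% of regions, with a median log2 ratio of library 1 over library 2 of 0.32 (5th and 95th percentiles -0.39 and 0.96). The SD of this ratio was 0.41, beside the 0.24 that counting error alone gives. The excess over counting error was present at every depth: the SD was 0.50 beside 0.33 at regions with up to 100 Acla reads in sum and 0.22 beside 0.11 at regions with over 500. A ratio beyond 2-fold was found at 2574 regions (4.20%), of which 2451 were higher in library 1 and 123 in library 2, and at none of the 3568 regions with over 500 reads. The authors had called a peak in both Acla libraries at 45026 regions (73.5%), in library 1 alone at 5807, in library 2 alone at 6561, and in neither at 3901 (6.36%). These last regions were short, with a median of 597 bp, and had a median log2 fold of 2.40, beside 932 bp and 2.71 where both libraries had a peak.

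The largest disagreements lay at regions of low depth. With at least 50 reads in sum, the largest ratio in favour of library 1 was at chr8:140409996-140410755, with 71 and 12 reads (log2 ratio 2.52), followed by chrX:120760152-120760829 with 76 and 14, chr15:80535773-80536530 with 66 and 13 and chr6:148259580-148260509 with 100 and 21. In the other direction the regions were chr19:45156505-45157309 with 16 and 60 reads (log2 ratio -1.95), chr19:16837709-16838469 with 18 and 65, chr22:50674970-50676142 with 16 and 57 and chr19:840517-841290 with 17 and 58. All 4 regions with the largest excess of library 2 were on chromosomes 19 and 22. All 8 regions had control reads of 1 or 2 in each library.

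The ratio of the Acla libraries changed with the chromosome, and that of the control libraries changed with it. The median log2 ratio of the Acla libraries was lowest on chromosomes 22 (-0.22), 19 (-0.17) and 17 (-0.13), where library 2 was the higher, and highest on chromosome 4 (0.39). The log2 ratio of the summed control signal, library 1 over library 2, was -0.02, -0.19 and -0.23 on chromosomes 22, 19 and 17 and 0.64 on chromosome 4. Over 23 chromosomes, which all share the same 4 libraries, Pearson's r between the ratios of summed signal in Acla and in control was 0.90 and Spearman's rho 0.85. Chromosomes 16, 17, 19, 20 and 22 are known as gene-rich and GC-rich, and 4, 5, 13, 18 and X as gene-poor. The median ratio was -0.04 over the 5115 regions of the first set and 0.38 over the 13585 of the second. A peak in both Acla libraries had been called at 53.3% and 80.96% of these regions.

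**Figure D3:**
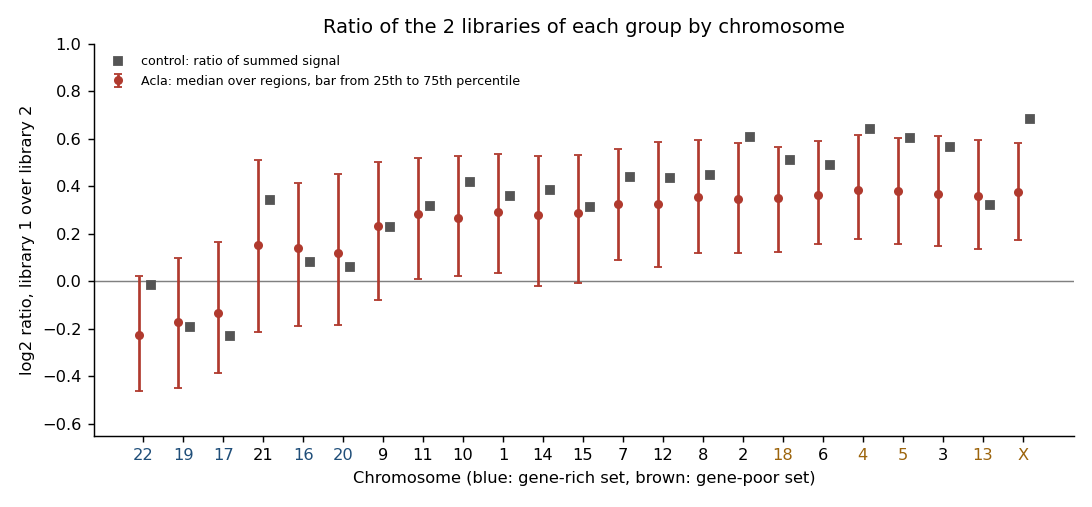
Log2 ratio of library 1 over library 2 by chromosome, for Acla as the median over regions with bars from the 25th to the 75th percentile, and for control as the ratio of summed signal, with chromosomes ordered by the Acla ratio over summed signal. Both groups lie near or below 0 on chromosomes 22, 19 and 17 and above 0 on chromosomes 4, 5 and X.

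Adjacent regions shared part of this ratio. Pearson's r of the Acla library ratio between neighbouring regions was 0.37 at distances up to 2 kb (8025 pairs), 0.32 at 10 to 50 kb and 0.27 beyond 200 kb, while r of the authors' log2 fold was 0.12, 0.09 and 0.08. Subtracting the median of the chromosome lowered the SD of the ratio from 0.41 to 0.39. In windows of 1 Mb with at least 10 regions, subtracting the window's median lowered it from 0.40 to 0.33, beside 0.24 from counting error. Part of the difference between the Acla libraries was thus shared by regions of the same window. Among 1204 windows with at least 20 regions, the log2 ratio of summed signal ran from -0.46 on chromosome 19 at 2-3 Mb to 0.59 on chromosome 12 at 101-102 Mb, and was below 0 in 184.

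Gained regions were found on chromosomes 1 to 22 and X, at unequal density. These chromosomes held 20.2 regions per Mb up to their last region. A further 4 listed regions were assigned to chromosome Y, and whether their reads came from that chromosome was not tested. The density was highest on chromosomes 11 (28.2 per Mb), 1 (26.8), 7 (26.4), 8 (25.6) and 2 (25.3), and lowest on chromosomes 22 (7.93), 14 (10.7) and 13 (11.9). It was 14.9 per Mb over the gene-rich set, 18.9 over the gene-poor set and 21.6 over the other chromosomes. K562 cells are aneuploid, and the number of copies of a chromosome, which also sets how many reads its regions collect, was not measured here.

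The size of the gain differed little between chromosomes. The median log2 fold ran from 2.46 on chromosome 19 to 2.85 on chromosome X, where regions were also the widest (median 955.5 bp, beside 854 bp) and 96.4% had no control peak. It was 2.53 in the gene-rich set, 2.70 in the gene-poor set and 2.61 elsewhere. This difference of 0.17 between the sets depended on the libraries: it was -0.02 without Acla library 1 and -0.04 without control library 2, and 0.37 and 0.38 without Acla library 2 or control library 1. Across 23 chromosomes the median fold followed the Acla library ratio (Pearson's r 0.78). From single libraries, the difference was 0.15 for Acla library 1 over control library 1, 0.18 for Acla library 2 over control library 2, 0.58 for Acla library 1 over control library 2 and -0.25 for Acla library 2 over control library 1. It was thus near 0.17 where libraries of the same number were set together, but the numbers are only the order of the columns, and the labels pair no libraries. No test of the difference was made.

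Regions were dense towards the ends of chromosomes. Within 5 Mb of an end lay 7982 regions, 13.02% of the list in 6.76% of the span, at 38.9 per Mb beside 20.2 over the genome. Ends were counted from the start of the chromosome or its last region, leaving out the short arms of chromosomes 13, 14, 15, 21 and 22. The whole span and the 20.2 per Mb still take in those short arms. The density was 33.6 per Mb within 1 Mb, 39.9 within 2 Mb and 36.6 within 10 Mb. The fold was not higher there, with a median log2 fold of 2.48 within 1 Mb and 2.54 within 5 Mb, and 84.4% and 86.7% of the regions had no control peak. The Acla library ratio also shifted, to a median of -0.03 within 1 Mb and 0.06 within 5 Mb. Ends differed from each other. The last 5 Mb of chromosome 11 held 483 regions, and the first 5 Mb of chromosomes 1, 2 and 5 held 404, 402 and 363, while the first 5 Mb of chromosomes 12, 20 and 18 held 21, 34 and 44.

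Along the chromosomes, most distances between adjacent regions were shorter than even spacing would give. Even spacing is the span over the number of regions, so the mean distance lies near it by construction. Regions placed at random would also have a median below the mean. No random placement was drawn, so the median alone does not show clustering. The median distance from a region to the preceding one was 15.1 kb and the mean 47.1 kb, beside 48.0 kb for even spacing, and 23949 distances (39.1%) were under 10 kb. Joining regions less than 10 kb apart left 25066 regions (40.9%) on their own, put 26617 (43.4%) into runs of 2 to 4, 7568 (12.3%) into 1269 runs of 5 to 9, and 2044 (3.33%) into 161 runs of 10 or more. Regions on their own and in runs of 2 to 4 had a median log2 fold of 2.61, those in runs of 5 to 9 had 2.64, and those in runs of 10 or more had 2.78. Regions became narrower from single regions (929 bp) to the longest runs (748 bp), and the share with no control peak went from 92.0% to 88.4%. How far a run is a single wider domain that was split by peak calling was not tested.

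The longest run, at chr1:2770644-2907164, held 33 regions over 136.5 kb, with 5472 and 5304 Acla reads against 117 and 106 in the controls. Its regions had log2 folds from 1.67 to 4.31, 30 had no control peak, and the regions themselves covered 19.9% of its length. The run at chr1:17488975-17613653 held 19 regions over 124.7 kb, with 2375 and 2291 reads against 58 and 46. At chr1:4929172-5039429, 23 regions over 110.3 kb held 3183 and 2202 reads against 69 and 41, and none was a control peak. At chr8:136922779-137028883, 21 regions over 106.1 kb held 2521 and 1761 reads against 45 and 32, again without a control peak. Most of the length of these runs thus lay outside the list, where signal was not analysed.

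In windows of 1 Mb the number of regions varied far more than its mean. The 2962 windows held a mean of 20.7 and a median of 15 regions, 177 held none, and the variance was 19.2 times the mean. Windows inside the long empty stretches given below, some of them across centromeres, are among the 177. The variance was not recomputed without them. The 296 densest windows held 32.3% of the regions, and 579 windows (19.5%) were enough for 50% of them. The densest windows, which also gained the most normalized reads, were chromosome 1 at 4-5 Mb with 150 regions, chromosome 1 at 177-178 Mb with 135, chromosome 11 at 132-133 Mb with 134 and chromosome 8 at 143-144 Mb with 130. Their median log2 folds were 2.75, 2.87, 3.03 and 2.67. In the window on chromosome 1 at 4-5 Mb the regions held 22497 and 17733 Acla reads against 488 and 371 control reads. The diMe-Doxo list had 151, 86, 95 and 162 regions in these windows and the Doxo list 92, 52, 46 and 119.

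**Figure D4:**
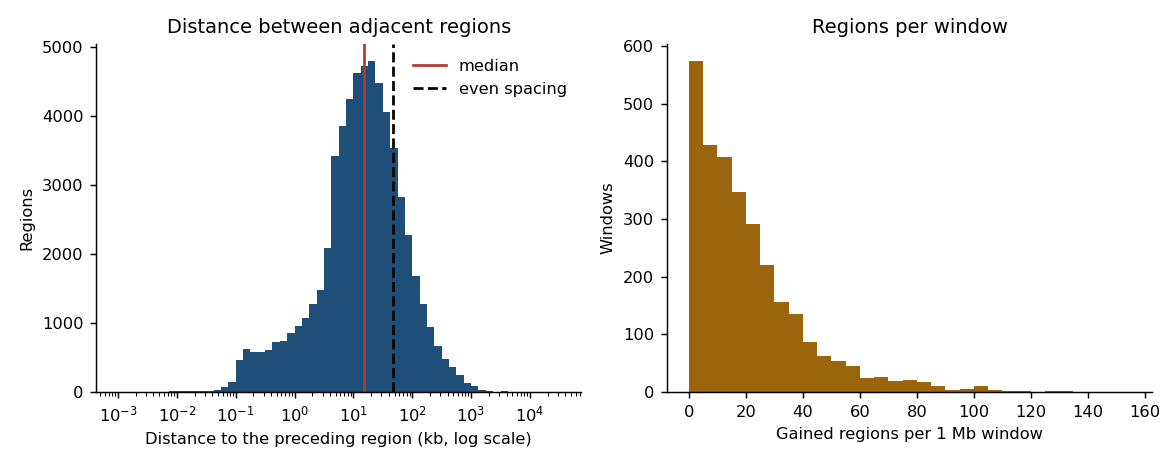
Distance from each gained region to the preceding one on a log axis in kb (left, with the median of 15.1 kb and the even spacing of 48.0 kb marked) and number of gained regions per 1 Mb window (right). The right panel has a long tail, from a median of 15 to a highest count of 150.

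Regions in dense windows held more Acla reads for their length. From windows with 1 to 10 regions to the 57 windows with over 80, the median log2 fold went from 2.50 to 2.73, the median width from 946 to 793 bp, and the Acla reads per kb of region from 29.97 to 51.8. Mean control reads went from 2.14 to 2.84 in library 1 and from 2.08 to 2.20 in library 2. None of the 5624 regions in windows with over 80 lay on the gene-rich chromosomes, which held 13.4% of the regions in the sparsest windows. Across windows with at least 20 regions Spearman's rho between the number of regions and the median fold was 0.02, and that between the median fold and the Acla library ratio was 0.48.

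Long stretches held no gained region. The longest were chr1:120468411-144865343 (24.4 Mb), chr9:44175455-66455392 (22.3 Mb), chr9:20514357-31981422 (11.5 Mb) and chr16:35146880-46503609 (11.4 Mb). The stretches on chromosome 1, on chromosome 9 from 44 Mb and on chromosome 16 span centromeres and the heterochromatin beside them. How much sequence the build holds there was not analysed, so a lack of listed regions need not be a lack of gain. The stretch on the short arm of chromosome 9 spans no centromere, and K562 is known to have lost part of that arm. The Doxo list held 1 region in it and the diMe-Doxo list 0, and copy number was not tested here.

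Most Acla regions were listed for another drug as well. Of the 61295, 28735 (46.9%) were in all 3 lists, 14667 (23.9%) in the diMe-Doxo list as well, 4052 (6.61%) in the Doxo list as well, and 13841 (22.6%) in the Acla list alone. This amounts to 43402 regions shared with diMe-Doxo, 70.8% of the Acla and 82.2% of the diMe-Doxo list, and to 32787 shared with Doxo, 53.5% of the Acla and 49.1% of the Doxo list. The lists share their controls, so their overlap has no test here, and a region missing from a list may have gained less there. In the gene-rich set 72.6% of Acla regions were also in the Doxo list, beside 49.9% in the gene-poor set, while for the diMe-Doxo list the shares were 66.5% and 68.5%. Regions of the Acla list alone made up 15.2% and 25.9% of these sets.

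At regions in both lists, reads with Acla at 20 µM were compared with those of the other drugs at 10 µM by edgeR's quasi-likelihood test, which used no control library. The doses differed, so compound and dose cannot be told apart. Against diMe-Doxo, 2421 of 43402 regions (5.58%) were called higher with Acla and 367 (0.846%) lower at a Benjamini-Hochberg adjusted p of at most 0.05, with the authors' factors. With TMM factors, which centre the shared regions, 3612 were higher and 2884 lower, so the share of higher calls among all calls went from 86.8% to 55.6%, and the median log2 difference from 0.15 to -0.0037. Both scalings called 2415 regions higher and 367 lower. Leaving out a library left 3 to 5075 higher calls (3 without diMe-Doxo library 2, 69 without Acla library 1, 151 without diMe-Doxo library 1 and 5075 without Acla library 2) and 5 to 322 lower calls (5 and 14 without diMe-Doxo libraries 1 and 2, 31 without Acla library 1).

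The regions with the lowest adjusted p against diMe-Doxo were listed as gained with both drugs and differed by 1.52 to 2.04 on the log2 scale. At chr1:209023685-209025859 the reads were 453 and 315 with Acla and 91 and 78 with diMe-Doxo, a log2 difference of 1.67 (edgeR adjusted p 7.89e-07). At chr3:7752312-7754142 they were 347 and 275 against 85 and 49 (log2 difference 1.70), and at chr3:179920690-179921924 they were 183 and 136 against 26 and 28 (2.04). In the other direction, chr6:166720213-166722353 had 240 and 264 reads with Acla and 596 and 422 with diMe-Doxo, a log2 difference of -1.52 (edgeR adjusted p 9.58e-08). At chr1:235812333-235814244 the reads were 172 and 174 against 398 and 316 (-1.56), and at chr14:59930476-59932462 they were 65 and 57 against 209 and 132 (-1.99). The calls at these 6 regions also passed with TMM (log2 differences of 1.501, 1.55, 1.88, -1.66, -1.70 and -2.14). The regions were chosen by adjusted p on these same libraries, which makes this likely.

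Calls against diMe-Doxo were unequally spread, and the differences between sets were not tested. On chromosome X 10.6% of 1557 regions were called higher with Acla, with a median log2 difference of 0.38 (0.22 with TMM), beside 7.18% over the gene-poor and 3.53% over the gene-rich set. Of regions up to 500 bp wide 0.344% were called higher and 0.246% lower, with a median log2 difference of -0.03 (-0.19 with TMM). Of those of 1001 to 2000 bp 9.02% were higher and 1.13% lower, with a median of 0.22 (0.07 with TMM), and of those over 2000 bp 9.06% were higher and 5.20% lower, with a median of -0.02 (-0.17 with TMM). Reads per region also go up with width, and their part in these shares was not tested. At the 2678 regions with over 10 control reads, 2.24% were higher and 3.21% lower, with a median log2 difference of -0.11 (-0.25 with TMM).

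Against Doxo, 3700 of 32787 regions (11.3%) were called higher with Acla and 8734 (26.6%) lower by the same test. With TMM 6144 were higher and 7710 lower, so the share of higher calls went from 29.8% to 44.3%, and the median log2 difference from -0.12 to 0.09. Both scalings called 3699 regions higher and 7710 lower. Lower calls numbered 7311 to 7700 with a library left out. Higher calls numbered 943 without Acla library 1 and 1774 without Doxo library 1.

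The lowest adjusted p against Doxo belonged to regions with far more reads after Doxo. At chr4:48491667-48494203 the reads were 99 and 116 with Acla and 706 and 828 with Doxo, a log2 difference of -4.63 (edgeR adjusted p 1.94e-150, or 1.63e-14 with TMM). At chr13:110434909-110438139 they were 231 and 185 against 906 and 1028 (-4.02), and at chr13:53419715-53422820 they were 180 and 176 against 793 and 926 (-4.07). These regions were gained with both drugs, with authors' log2 folds over control of 2.03, 2.40 and 2.94 for Acla and 6.60, 6.36 and 6.96 for Doxo. Higher with Acla were chr8:118488620-118490969, with 368 and 265 reads against 20 and 6 (log2 difference 2.80, edgeR adjusted p 5.57e-15), chr11:133524761-133526734, with 464 and 398 against 30 and 29 (2.06), and chr2:19023923-19025663, with 391 and 266 against 20 and 17 (2.34). The log2 differences take in the library factors, so they are not the ratios of these reads.

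Chromosomes differed in this comparison. In the gene-rich set 2.37% of 3712 regions were called higher with Acla and 45.8% lower, with a median log2 difference of -0.73 (-0.52 with TMM). In the gene-poor set, of 6786 regions, the shares were 15.02% and 19.9% and the median 0.07 (0.28 with TMM). Chromosome 19 stood lowest, with 4 of 909 regions higher, 529 lower and a median of -1.16 (-0.94 with TMM). At the 2467 regions with over 10 control reads, 4.18% were higher and 54.1% lower. The differences between these sets were not tested.

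The share of reads that fell on gene-rich chromosomes showed the same contrast in single libraries. Over the 28735 regions in all 3 lists, chromosomes 16, 17, 19, 20 and 22 held 9.66% of the regions. They took 7.17% and 8.63% of the reads of the Acla libraries, 7.82% and 7.69% with diMe-Doxo and 11.8% and 11.4% with Doxo. Both Doxo libraries were above both Acla libraries, while the diMe-Doxo libraries lay between the Acla libraries. The control libraries took 7.85% and 10.8%, a wider gap than within any drug, so the controls do not place the untreated level between these values.

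**Figure D5:**
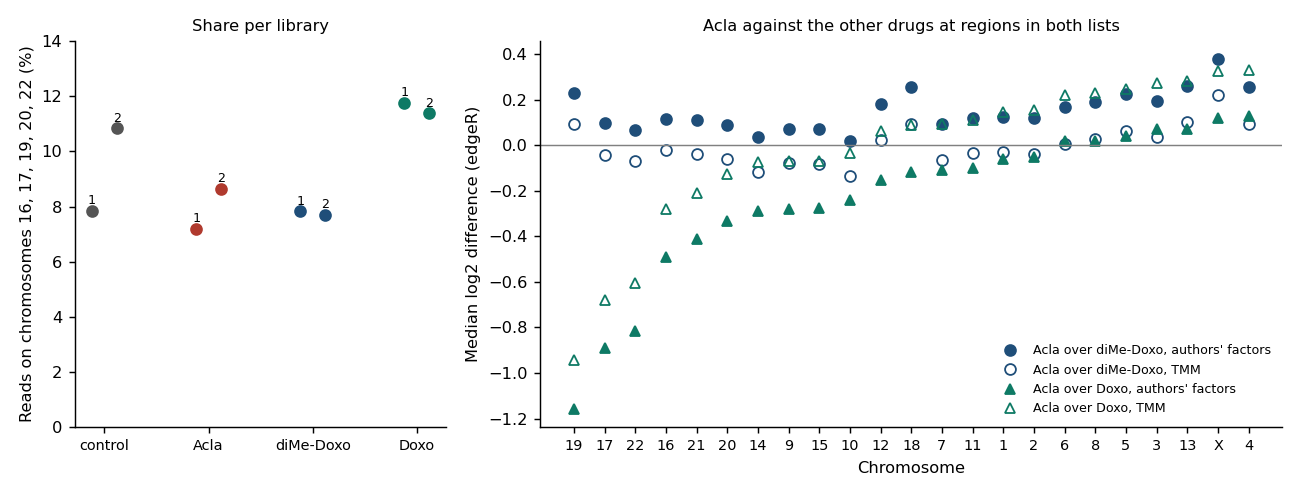
Share of reads on chromosomes 16, 17, 19, 20 and 22 at the 28735 regions in all 3 lists, by library (left), and median log2 difference of Acla over each other drug at shared regions by chromosome, with the authors' factors (filled) or TMM (open) (right). Against Doxo the median is lowest on chromosome 19 (-1.16, or -0.94 with TMM), and TMM moves all medians of a comparison by a near constant.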

How the data were processed

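Per the submitters' processing notes, the build was GRCh37 and DiffBind was used. Aligner, peak caller, normalization and test are not given in the sources used for this text. The deposited lists have no header, so what each column holds was inferred from its values. In them the authors give log2 means and log2 folds, a p-value with its FDR, a count of libraries with a called peak in each group, and a signal per library, which is the read count times a factor of that library. The fold equals the difference of log2 means within 0.01. Whether starts count from 0 or 1 is not stated. Reads were recovered by dividing each signal by the library's step, after which 100% of values were whole to within 0.1. Control reads were identical at all regions that the Acla list shares with either other list.

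Folds, widths, spacing and library ratios are descriptions of a selected list. The counting SD is the Poisson SD of the log2 ratio of 2 counts, and ratios of reads carry exact 95% intervals. Drugs were compared with edgeR's quasi-likelihood test on recovered reads over all shared regions, with Benjamini-Hochberg adjustment over all of them. The authors' factors were rescaled through the common controls, although no common rescaling matches both control libraries exactly. Alternatives were TMM factors, DESeq2, a filter on low counts, other distances and windows, stricter limits, and each library left out. A limit of 50% overlap was also planned, but it could change nothing, as no Acla region overlapped another list only in part. The restrictions to regions with 1 read in both controls or no control peak, and folds from single libraries, were chosen after seeing the data.

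The members and lists were chosen with earlier results of these data known. Named regions are the 4 at each extreme of FDR, fold, width, control reads and ratio of the Acla libraries (at least 50 reads in sum), the 4 densest windows, those with most reads gained, the 4 longest runs and empty stretches, and the 3 with the lowest adjusted p in each direction of a drug comparison. Position relative to genes was not analysed here. Tests ran in R 4.3.3 with edgeR 4.0.16 and DESeq2 1.42.0, and tables in Python 3.11.15 with pandas 2.3.3 and scipy 1.17.1.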

Additional observations from a re-analysis of the deposited data

How the results depend on the processing

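Limits of 0.01 on the FDR and 2 on the log2 fold left 26254 regions, with a median width of 1036 bp, a median log2 fold of 3.27, no control peak at 92.5%, an SD of the Acla library ratio of 0.33, 22.7% within 10 kb of the next and a variance to mean ratio of 11.4 per window. With at least 2 reads in a control library the values were 40204 regions, 976 bp, 87.5%, 0.38, 31.0% and 15.3. Within 5 and 25 kb of the next lay 23.5% and 63.6%, and windows of 500 kb and 2 Mb gave 11.8 and 30.2. The median log2 fold was 2.46 to 3.12 with a library left out. The difference between gene-poor and gene-rich chromosomes turned to -0.0241 without Acla library 1 and -0.0419 without control library 2, and its highest value with a library left out was 0.376. It was 0.12 at regions with 1 read in both controls and 0.17 at those with no control peak, and 0.585 and -0.247 for Acla library 1 over control library 2 and Acla library 2 over control library 1 (0.155 and 0.183 for like-numbered libraries), and the cause was not tested. Calls against control were 0 with TMM and with DESeq2, both centred on a list of gains, and 37170 to 51394 with a library left out. Against diMe-Doxo, DESeq2 called 1015 higher and 1038 lower among the 28255 regions it gave an adjusted p, TMM called 2884 lower, and the ranges with a library left out were 3 to 5075 higher and 5 to 322 lower. Against Doxo, TMM called 6144 higher, and the range for higher calls was 943 to 3487. Of 74 recomputed values, 35 stayed within the spread or within 1.5 times the count, but this tally does not measure robustness. Several settings could change nothing. No Acla region overlapped another list only in part, the limit of 50 Acla reads removed no region, and the low-count filter removed none in the drug comparisons. All recomputed variance to mean ratios were counted as moved by rule. Fits with a library left out have less power, and the lone library was assumed to vary like the others. No paired analysis was possible because the labels give the libraries no replicate numbers, and the order of columns does not pair them. Depth limits the control values, which rest on 1 or a few reads.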
